A study of Mus musculus with 9 samples.

Results

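The baseline transcriptome of normal mouse lung was described from 3 libraries, the normal replicates 1, 2 and 3, of the 9 libraries in the series. They were taken as the libraries labelled normal, with no use of measured values. The labels give 3 mice per group, and each library was taken here as the lung RNA of 1 mouse. The study concerned a self-assembled peptide nanozyme for lung fibrosis, and its other 6 libraries (a fibrosis model and the nanozyme group, 3 mice each) were not used here. The labels state neither strain, age nor sex, nor any treatment given to the normal mice. The measure is FPKM, a fragment count scaled to transcript length and library size, so that levels of different genes can be set side by side. All 25526 names of the table entered the description. Of the 21437 names that matched GENCODE vM21, 21403 were protein-coding and 34 were of another type. Of 12 long non-coding RNAs listed, 11 were not analysed, Malat1 and Xist among them. Shares are therefore of a sum made up almost wholly of protein-coding genes, not of all lung RNA. A share is the FPKM of a gene or gene list divided by the FPKM sum of the same library, and a mean is given ± SD over 3 libraries.

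Whole lung mixes the lining of the conducting airways with that of the gas-exchange surface. Club cells secrete anti-inflammatory and antimicrobial proteins into the airways, and ciliated cells move the mucus. In the alveoli, thin type 1 cells form the barrier for gas exchange, while type 2 cells make surfactant, the lipid and protein film that lowers surface tension. A dense capillary bed, fibroblasts, smooth muscle and resident immune cells complete the organ.

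The 3 libraries had FPKM sums of 495491 for replicate 1, 505051 for replicate 2 and 498282 for replicate 3. Replicate 3 stood close to the midpoint of the other libraries gene by gene, and this bears on every SD given below. Among 571 genes with a mean of 100 FPKM or more, replicate 3 was within 5% of the mean of replicates 1 and 2 at 80.0%. By contrast, replicate 2 was within 5% of the mean of the remaining libraries at 30.3% of these genes, and replicate 1 at 31.9%. Over the 13895 genes with a mean of 1 FPKM or more, replicate 3 lay between replicates 1 and 2 at 54.2%, against 22.9% for replicate 2 and 22.8% for replicate 1 in the same position. Pearson's r of log2(FPKM + 1) across these genes, given as a description, was 0.96 between replicates 1 and 2, 0.98 between 1 and 3, and 0.97 between 2 and 3. Whether the 3 libraries share RNA or reads was not tested. The main shares were therefore also taken over replicates 1 and 2 alone. On that basis the share was 12.7% for Scgb1a1, 6.92% for mitochondrially encoded transcripts, 6.74% for cytosolic ribosomal proteins and 26.3% for all cell type lists together.

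**Figure D1:**
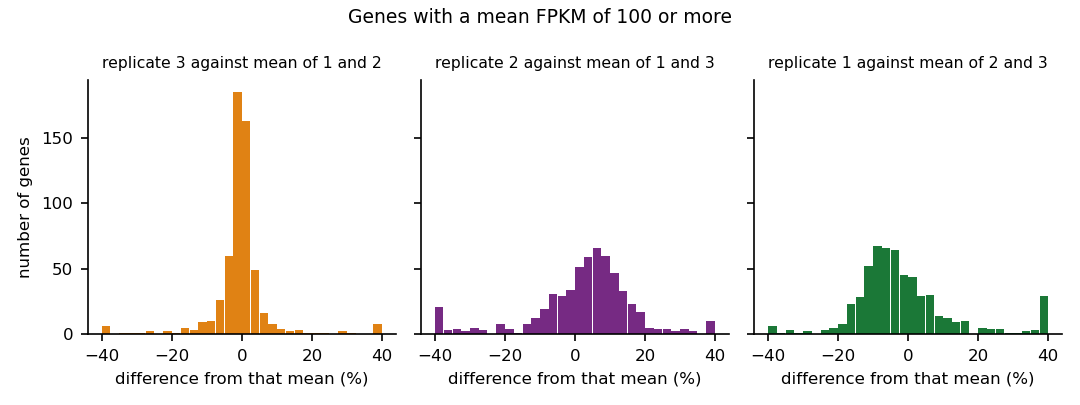
Each panel shows, for the 571 genes with a mean of 100 FPKM or more, how far the named library lay from the mean of the other libraries (horizontal axis, percent of that mean; vertical axis, number of genes), with genes beyond 40% placed in the end bars. Replicate 3 is concentrated around 0, with 457 genes within 5%, against 173 for replicate 2 and 182 for replicate 1.

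The 2 genes with the largest shares, Scgb1a1 and Sftpc, encode secreted proteins of the airway and alveolar epithelium and together held 17.3% ± 1.84 of the summed FPKM. On average 259 ± 26.6 genes held 50% of the summed FPKM (SD, n = 3; 284, 231 and 261 in replicates 1, 2 and 3), and 5510 ± 165 genes held 90%. The 50 most abundant genes of each library held 35.3% ± 1.04, and 35.4% over replicates 1 and 2 alone, where a mean of 257.5 genes held 50%. The most abundant gene alone held 12.8% ± 1.35. In all 3 libraries 13247 genes reached 1 FPKM, 6409 reached 10 FPKM, 512 reached 100 FPKM and 31 reached 1000 FPKM, while 5604 names were listed at 0 throughout. By mean level, 37 genes at 1000 FPKM or more carried 32.9% ± 0.812 of the total, 534 genes between 100 and 1000 FPKM carried 25.5% ± 0.0961, and 6373 genes between 10 and 100 FPKM carried 34.8% ± 0.578.

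**Figure D2:**
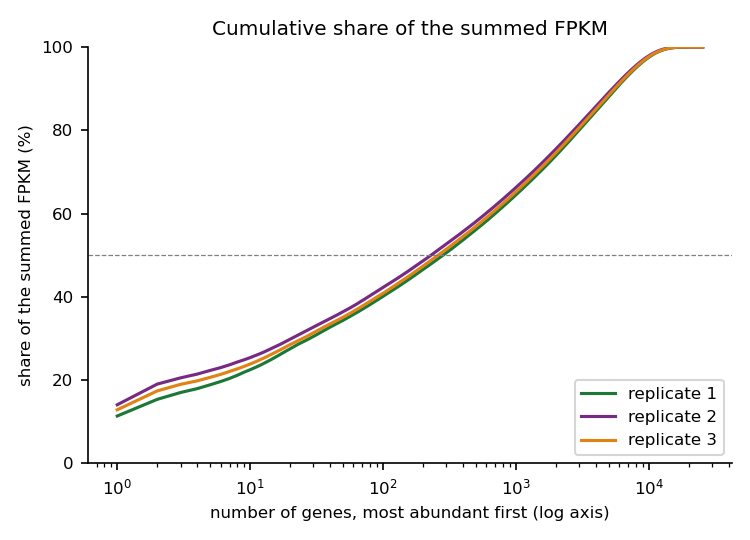
Cumulative share of the summed FPKM (vertical axis, percent) against the number of genes taken from the most abundant downward (horizontal axis, log scale), 1 line per library; the dashed line marks 50%. The first gene held 11.4% in replicate 1, 14.1% in replicate 2 and 12.9% in replicate 3, and the lines met as more genes were added.

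Among the 50 most abundant named genes, 19 belonged to a cell type list. A further 12 were encoded by the mitochondrial genome and held 6.81% of the summed FPKM. The list also held 7 cytosolic ribosomal proteins (1.32%) and 10 members of another function list (2.85%). The remaining members, Lyz2 and Wfdc2, were in no list. Lyz2, the lysozyme made by macrophages and type 2 cells, had 3695, 4557 and 4168 FPKM in replicates 1, 2 and 3. Wfdc2, a protease inhibitor of airway secretions, had 1253, 841 and 1145 FPKM. The plot of the 30 most abundant genes shows that for most of them the 3 libraries nearly coincided, and that Bpifa1 and Scgb3a1 did not.

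**Figure D3:**
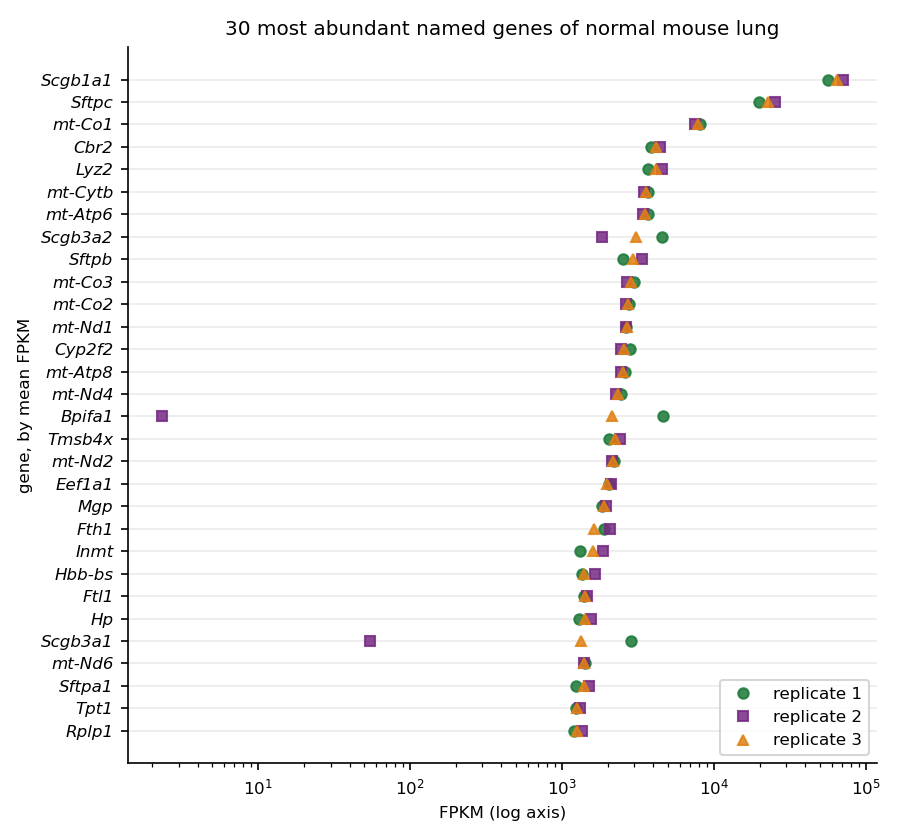
FPKM of the 30 most abundant named genes (log axis) in each library, with genes ordered by their mean and 1 symbol per library. Scgb1a1 stands at 56368 FPKM or more in every library, while Bpifa1 ranges from 2.34 to 4599 FPKM and Scgb3a1 from 54.6 to 2836 FPKM.

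The club and secretory cell list held the largest share of FPKM among the lists. Its 15 genes held 16.1% in replicate 1, 16.3% in replicate 2 and 16.2% in replicate 3, although 8 of the 15 genes differed at least 2-fold. Scgb1a1 went the other way from most of them: the 14 other genes held 4.70%, 2.23% and 3.37%, with a mean of 3.44% ± 1.24. Over all genes with a mean of 1 FPKM or more, 4.89% differed at least 2-fold between their highest and lowest library on log2(FPKM + 1). Scgb1a1 encodes uteroglobin, the main secretory protein of club cells, and lies at chr19:9083636-9087958 of GRCm38 on the minus strand. It had 56368, 71115 and 64126 FPKM in replicates 1, 2 and 3. It was lowest in replicate 1 and was the most abundant gene of every library. Weighting each FPKM by gene length, which approximates a share of fragments, lowered the share of Scgb1a1 to 2.04% ± 0.238, since its exons span only 476 bases. With that weight the club list held 3.96% ± 0.389, below the 4.42% of cytosolic ribosomal proteins.

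Several abundant members of the list differed little between libraries. Cbr2, a carbonyl reductase, had 3872, 4406 and 4150 FPKM in replicates 1, 2 and 3. Cyp2f2, the cytochrome P450 that marks club cells, averaged 2608 ± 167 FPKM (SD, n = 3). Hp, which encodes the haemoglobin-binding protein haptoglobin, averaged 1424 ± 128 FPKM. The aldehyde dehydrogenase gene Aldh1a1 differed more, with 1216, 794 and 997 FPKM. Secreted defence proteins of the larger airways differed most widely. Bpifa1, an antimicrobial protein of the upper airway surface, had 4599 FPKM in replicate 1, 2.34 in replicate 2 and 2131 in replicate 3. Bpifb1, of the same family, had 1077, 4.75 and 510 FPKM. The secretoglobin Scgb3a1 had 2836, 54.6 and 1343 FPKM. Each was highest in replicate 1, far lower in replicate 2 and close to the midpoint in replicate 3. Reg3g, an antibacterial lectin, showed the same order with 736, 0.929 and 349 FPKM. Muc5b, the gel-forming mucin of airway mucus, had 41.1, 5.03 and 22.6 FPKM. A second secretoglobin, Scgb3a2, was present in every library at 4563, 1826 and 3065 FPKM.

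Goblet and basal cell genes varied in the same direction. Goblet cells produce mucus, and their 6 genes summed to 187, 9.59 and 89.9 FPKM in replicates 1, 2 and 3. All 6 were higher in replicate 1 than in replicate 2, against 49% of all genes with a mean of 1 FPKM or more. Tff2, a trefoil peptide secreted with mucus, had 88.7, 3.99 and 41.3 FPKM. Clca1, a secreted regulator of mucus, had 49.5, 0.0984 and 23.5 FPKM. Basal cells are the stem cells of the larger airways, and their 7 genes summed to 61.1, 1.57 and 29.6 FPKM, again with all 7 higher in replicate 1. Their keratin Krt15 had 27.7, 0.0943 and 12.7 FPKM in replicates 1, 2 and 3, and Krt5 was listed at 0 in replicate 2 and had 14.5 FPKM in replicate 1. Both lists were lowest in replicate 2, at 0.00190% for goblet and 0.000312% for basal genes. In replicate 3 they held 0.0180% and 0.00593%. Without replicate 1 the mean share fell from 0.0192% to 0.00997% for goblet genes and from 0.00619% to 0.00312% for basal genes.

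Ciliated cell genes were present in every library, with a smaller spread than goblet and basal genes but a wider one than a typical gene. Of the 20 listed genes, 4 differed at least 2-fold, against 4.89% of all genes with a mean of 1 FPKM or more. Their median SD of log2(FPKM + 1) was 0.46, against 0.10 over all these genes. All 20 were at 1 FPKM or more throughout, with sums of 2248, 1552 and 1866 FPKM. Of the 20, 19 were higher in replicate 1 than in replicate 2, against 49% of all genes. Foxj1, the transcription factor that directs the formation of motile cilia, had 156, 96.5 and 124 FPKM. Sec14l3, a lipid transfer protein of ciliated cells, averaged 710 ± 54.0 FPKM (SD, n = 3). Genes of rarer airway cells were low: the 8 neuroendocrine genes summed to between 11.4 and 16.9 FPKM and the 7 tuft cell genes to between 2.86 and 3.73 FPKM. Tuft cell members Chat and Il25 were listed at 0 in all 3 libraries. In bulk tissue, fewer cells of a type and less RNA per cell cannot be told apart.

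RefSeq start-site windows were examined for the abundant cell type genes as a description of their sequence. Of the 19 genes in both the 50 most abundant and a cell type list, 14 had a window of 250 bases before to 50 bases after the start (GRCm38.p6). The motif TATAAA, read on the gene's strand with its first base 40 to 20 bases before the start, was found in 3 of the 14 (21.4%). It was found in 0 of 58 genes for cytosolic ribosomal proteins with a window and in 2.41% of all 27025 genes in the RefSeq table. Among the 10135 named genes with a window and a mean of 1 FPKM or more, it was found in 1.62%. A match is a description of letters and not a functional site. The 3 matches were Bpifa1, Sftpa1 and Hbb-bt. They are shown with Reg3g, chosen after its values were seen, and with Rps3a1 as a ribosomal protein gene. Sftpa1 and Hbb-bt each differed 1.22-fold between their highest and lowest library, while Scgb3a1 differed 52.0-fold and had no match. Whether the motif bears on differences between libraries was not tested. Each line gives the 60 bases before the start, 5′ to 3′. Capitals mark TATAAA in the cell type genes and each CG dinucleotide in Rps3a1.
Bpifa1: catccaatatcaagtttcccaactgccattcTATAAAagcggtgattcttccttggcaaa
Reg3g: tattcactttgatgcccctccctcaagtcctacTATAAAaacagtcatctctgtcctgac
Sftpa1: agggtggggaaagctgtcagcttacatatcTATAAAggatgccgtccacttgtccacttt
Hbb-bt: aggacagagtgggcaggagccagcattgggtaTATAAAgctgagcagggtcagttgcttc
Rps3a1: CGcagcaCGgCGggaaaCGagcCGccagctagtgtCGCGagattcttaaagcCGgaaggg
The stretches lie at chr2:154142820-154142879 (plus strand), chr6:78468875-78468934 (minus), chr14:41131728-41131787 (plus), chr7:103813924-103813983 (minus) and chr3:86142669-86142728 (minus), in the order shown. The windows of the 14 abundant cell type genes held a median of 3.5 CG dinucleotides, against 8 for all genes of the table. The median was 22 for the 58 ribosomal protein genes and likewise 22 for the 10135 named genes with a mean of 1 FPKM or more.

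Alveolar genes were abundant, and together the type 1 and type 2 lists held 6.74% ± 0.705 of the summed FPKM. The 15 type 2 genes held 5.41%, 6.69% and 6.12% of the summed FPKM in replicates 1, 2 and 3. Of the 15, 0 differed 2-fold, against 4.89% of all genes with a mean of 1 FPKM or more. Their median SD of log2(FPKM + 1) was 0.14, against 0.10 over all these genes. Sftpc, the surfactant protein characteristic of type 2 cells, lies at chr14:70520949-70524081 and had 19846, 25072 and 22612 FPKM. It held 4.50% ± 0.480 of the summed FPKM (SD, n = 3). The other hydrophobic surfactant protein, Sftpb, had 2519, 3348 and 2932 FPKM. The surfactant collectins, which bind microbes, followed with means of 1382 ± 136 FPKM for Sftpa1 and 793 ± 69.1 FPKM for Sftpd. All 15 type 2 genes were lower in replicate 1 than in replicate 2, and 14 had replicate 3 in between. Over all genes, 49% were higher in replicate 1 and 54.2% had replicate 3 in between. Abca3, which loads surfactant lipid into lamellar bodies, averaged 85.6 ± 7.76 FPKM, and the phosphate transporter Slc34a2 averaged 458 ± 46.3 FPKM.

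Type 1 genes held 0.598%, 0.722% and 0.680% in replicates 1, 2 and 3. Of the 15, 0 differed 2-fold, against 4.89% of all genes, and their median SD of log2(FPKM + 1) was 0.12. Ager, the receptor for advanced glycation end products and the most abundant gene of these cells, had 962, 1243 and 1163 FPKM. Hopx, a homeodomain cofactor, had 573, 667 and 625 FPKM. The water channel gene Aqp5 averaged 146 ± 10.8 FPKM and the membrane glycoprotein gene Pdpn 58.9 ± 4.93 FPKM. Of the 15 genes, Pdpn alone was higher in replicate 1 than in replicate 2, against 49% of all genes. Of the 26 listed lung transcription factors with a mean of 1 FPKM or more, 0 differed 2-fold, against 4.89% of all genes. Their median SD of log2(FPKM + 1) was 0.15, against 0.10 over all genes. Nkx2-1, needed for lung epithelium, had 95.4, 117 and 110 FPKM, and Foxf1, of the lung mesenchyme, had 80.9, 91.5 and 87.5 FPKM. The defining markers of lung were thus present in all 3 libraries, as the label states.

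**Figure D4:**
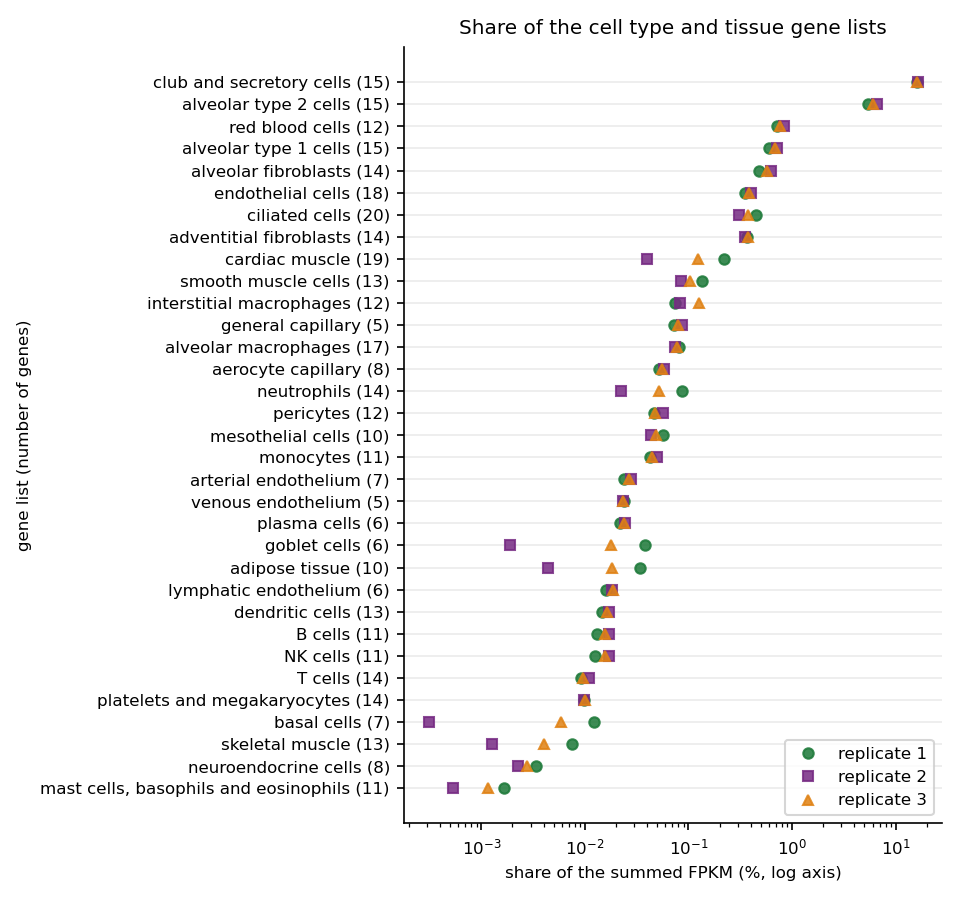
Share of the summed FPKM (horizontal axis, percent, log scale) of each cell type or tissue list with a mean share of 0.001% or more, with the number of genes in parentheses and 1 symbol per library. The goblet, basal, cardiac, skeletal muscle, adipose, neutrophil and mast cell lists, which differ at least 2-fold between replicates 1 and 2, spread from replicate 2 (lowest) through replicate 3 to replicate 1 (highest).

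Transcripts of the mitochondrial genome held 7.22%, 6.62% and 6.95% of the summed FPKM. All 13 protein-coding genes of that genome were measured. All 13 were higher in replicate 1 than in replicate 2, against 49% of genes with a mean of 1 FPKM or more. mt-Co1, a catalytic subunit of cytochrome c oxidase, was the third most abundant gene with 8144, 7565 and 7864 FPKM. The lowest was mt-Nd3, a subunit of complex I, which held 1.72% of the mitochondrial total. Nuclear genes for the respiratory chain were far lower per gene: 83 of them held 1.38% ± 0.0651, led by Cox4i1 at 326 ± 13.5 FPKM.

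The 79 cytosolic ribosomal protein genes held 6.41%, 7.06% and 6.65%, with a median level of 375 FPKM. Their means ran from 50.8 FPKM for Rps15a to 1268 FPKM for Rplp1, an acidic protein of the ribosomal stalk. Only 4 of the 79 were higher in replicate 1 than in replicate 2, against 49% of all genes. Although all are subunits of the same particle, 3 of the 79 differed at least 2-fold, against 4.89% of all genes. Rpl29 had 163, 2.38 and 122 FPKM and Rpl18 had 124, 610 and 185 FPKM. Rpl7a had 300, 103 and 147 FPKM. These genes have many processed copies in the mouse genome, so their values are uncertain. Translation factors added 1.17% ± 0.0232, with Eef1a1, which brings aminoacyl-tRNA to the ribosome, at 2046 ± 48.6 FPKM.

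Endothelial genes were numerous, moderate in level and steady. The 18 general endothelial genes held 0.380% ± 0.0257. All 18 were lower in replicate 1 than in replicate 2, whereas 49% of all genes were higher in replicate 1. Cldn5, a tight junction protein of vessels, had 239, 301 and 272 FPKM, and Pecam1, an adhesion molecule of endothelial junctions, had 152, 165 and 159 FPKM. Car4, a carbonic anhydrase of aerocytes, averaged 87.7 ± 4.27 FPKM, and Plvap, which forms the diaphragms of capillary pores, averaged 169 ± 17.2 FPKM. Vwf, the clotting factor of larger vessels, was nearly constant at 47.3, 47.3 and 47.9 FPKM. The lymphatic gene Ccl21a, a chemokine that attracts dendritic cells and lymphocytes, averaged 66.3 ± 8.59 FPKM.

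Mesenchymal lists together held 1.14% ± 0.0419. Inmt, a methyltransferase typical of mouse alveolar fibroblasts, was the most abundant of them with 1319, 1863 and 1607 FPKM. All 14 alveolar fibroblast genes were lower in replicate 1 than in replicate 2, whereas 49% of all genes were higher in replicate 1. Adventitial fibroblast genes, led by the actin-severing protein Gsn at 978 ± 42.8 FPKM, held 0.370%, 0.355% and 0.377%. Smooth muscle genes went the other way: 12 of 13 were higher in replicate 1, against the same 49%. Acta2, the smooth muscle actin, had 145, 85.3 and 110 FPKM. The 26 matrix glycoprotein and proteoglycan genes had a median SD of log2(FPKM + 1) of 0.10, as over all genes with a mean of 1 FPKM or more. For the 28 collagens at that level it was 0.12. Of the 26 genes, 3 were higher in replicate 1 than in replicate 2, against 49% of all genes. Mgp, an inhibitor of calcification, averaged 1892 ± 56.9 FPKM and Sparc, a collagen-binding protein, 772 ± 47.0 FPKM. Of 44 collagen genes, 28 reached 1 FPKM in all 3 libraries. The fibrillar collagens Col3a1 and Col1a2 averaged 134 ± 2.24 and 74.8 ± 0.996 FPKM, and the basement membrane collagens Col4a1 and Col4a2 averaged 107 ± 3.75 and 102 ± 7.34 FPKM.

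The listed immune genes made a small share of the whole-lung FPKM: 0.288% ± 0.0377 for 78 myeloid genes and 0.0636% ± 0.00645 for 42 lymphoid genes. These shares depend on the choice of genes. Sdc1 alone gave 88.2% of the plasma cell list, which is counted as lymphoid, and Ace gave 50.4% of the monocyte list. Lyz2, with 0.828% of the summed FPKM, was in no list and is not counted in the myeloid share. Ptprc, the CD45 antigen of all leukocytes, averaged 20.9 ± 2.49 FPKM. Chil3, a chitinase-like protein of alveolar macrophages, was nearly constant at 147, 135 and 141 FPKM. The complement subunits C1qa and C1qb of interstitial macrophages averaged 35.5 ± 1.58 and 31.6 ± 0.194 FPKM. In that list Apoe, the lipid carrier, went against the midpoint pattern with 185, 220 and 436 FPKM. The neutrophil list summed to 426, 112 and 261 FPKM, but Ltf was the only one of its 9 members with a mean of 1 FPKM or more to differ 2-fold. Ltf encodes lactoferrin, an antimicrobial protein of neutrophil granules and of glands, and had 300, 8.01 and 143 FPKM. The calgranulin S100a8, which neutrophils express in bulk, stayed at 11.8, 12.9 and 12.6 FPKM, and the granule genes Elane and Mpo were listed at 0 throughout. Among lymphoid genes the B cell receptor subunit Cd79b averaged 26.7 ± 4.36 FPKM and the cytotoxic protease Gzma 29.6 ± 4.91 FPKM. The constant genes of immunoglobulins and T cell receptors were not analysed here.

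Antigen presentation genes were higher than the leukocyte markers. B2m, the light chain of MHC class I, averaged 1122 ± 72.5 FPKM, and Cd74, the invariant chain of MHC class II, had 547, 694 and 633 FPKM. All 10 class II genes were lower in replicate 1 than in replicate 2, whereas 49% of all genes were higher in replicate 1. Globin transcripts were present in every library, and whether they came from residual blood was not tested. The red blood cell list held 0.716%, 0.846% and 0.765%, nearly all from Hbb-bs, Hba-a2, Hbb-bt and Hba-a1. Hbb-bs, an adult beta globin, had 1347, 1652 and 1393 FPKM. The near-identical globin copies cannot be told apart with certainty.

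Genes of tissues that adjoin the lung were among those that differed most between the normal libraries. The 19 cardiac muscle genes summed to 1097, 201 and 623 FPKM, and 15 of them differed at least 2-fold, against 4.89% of all genes. Cardiac muscle sheathes the pulmonary veins of the mouse and also forms the heart, and the source of these transcripts was not tested. Myl7, the atrial myosin light chain, had 210, 29.0 and 109 FPKM. Nppa, the atrial natriuretic peptide, had 70.2, 0.122 and 35.1 FPKM. Cardiac genes were thus highest in replicate 1, with replicate 3 near the midpoint. The 10 adipose genes summed to 170, 22.4 and 90.5 FPKM, led by Cfd, the complement protease adipsin, at 106, 12.3 and 53.6 FPKM. The 13 skeletal muscle genes were low, with sums of 37.2, 6.42 and 20.2 FPKM. Without replicate 1 the mean share went from 0.129% to 0.0823% for cardiac, from 0.0190% to 0.0113% for adipose and from 0.00428% to 0.00266% for skeletal muscle genes. Lists for airway cartilage, thymus, thyroid and oesophagus and for distant organs each summed to at most 5.64 FPKM in any library. From the cartilage list Acan and Matn1, the proteoglycan and matrilin of cartilage, were listed at 0 in all 3 libraries.

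Protective enzymes were abundant. The 25 antioxidant genes held 0.579%, 0.599% and 0.589%, and 0 differed 2-fold, against 4.89% of all genes with a mean of 1 FPKM or more. Their median SD of log2(FPKM + 1) was 0.10, as over all these genes. Sod1, the cytosolic superoxide dismutase, had 419, 417 and 439 FPKM, and Cat, the catalase that breaks down hydrogen peroxide, had 126, 147 and 135 FPKM. Sod3, the extracellular form, had 43.5, 67.2 and 54.0 FPKM and the mitochondrial Sod2 had 19.2, 20.7 and 19.7 FPKM. Gpx3, a secreted glutathione peroxidase, averaged 415 ± 59.5 FPKM and Prdx6, a peroxiredoxin with phospholipase activity, 386 ± 27.6 FPKM. Of the superoxide dismutases, the cytosolic form was thus the highest and the mitochondrial form the lowest in level in every library. Xenobiotic enzymes were less even, with 8 of 38 genes of 1 FPKM or more differing at least 2-fold, against the same 4.89%. Cyp4b1, a cytochrome P450 of lung, was steady at 332 ± 9.54 FPKM. Gsto1, a glutathione transferase, had 413, 112 and 264 FPKM, and Cyp2a5, a P450 of airway and nasal epithelium, had 85.3, 3.59 and 42.8 FPKM.

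Genes that respond within minutes to handling, and those of the daily clock, were among the most even lists by summed share. Gene by gene, the median SD of log2(FPKM + 1) was 0.05 for immediate early genes and 0.10 for clock genes. Over all genes with a mean of 1 FPKM or more it was 0.10. The 24 immediate early genes held 0.397%, 0.394% and 0.395%. Dusp1, a phosphatase induced by stress, averaged 271 ± 6.25 FPKM and Fos, a subunit of AP-1, 132 ± 5.95 FPKM. The 18 clock genes summed to 195, 198 and 198 FPKM, with the core repressor Cry2 at 19.4 ± 0.0839 FPKM. The 23 cell cycle genes held 0.0409% ± 0.00214. Heat shock genes were slightly higher in replicate 1, where 12 of 14 exceeded replicate 2, against 49% of all genes. Hspa8, the constitutive HSP70 chaperone, averaged 773 ± 47.6 FPKM. The Y-linked genes Ddx3y, Eif2s3y, Kdm5d and Uty were listed at 0 in all 3 libraries.

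For a typical gene the libraries differed little. The median SD of log2(FPKM + 1) was 0.10 over 13895 genes, with a median coefficient of variation of 8.10%. It was 0.15 for genes of 1 to 3 FPKM and 0.08 for genes of 30 to 100 FPKM. In all, 680 genes (4.89%) differed at least 2-fold between their highest and lowest library. Between pairs, 579 genes differed at least 2-fold between replicates 1 and 2, 166 between replicates 1 and 3, and 268 between replicates 2 and 3. The most even genes included Vps28, an ESCRT subunit for endosomal sorting, at 98.7, 98.6 and 98.6 FPKM. Sf3b2, a splicing factor, had 76.5, 76.6 and 76.7 FPKM. Por, the electron donor of microsomal cytochromes P450, averaged 199.8 ± 0.282 FPKM.

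The 20 genes with the largest range, among named genes with a mean of 10 FPKM or more, were led by 3 antimicrobial proteins of airway secretions, Bpifa1, Reg3g and Bpifb1. Replicate 1 was highest at 18 of the 20, and 9 were in a cell type list. For 14 of the 20, replicate 3 lay between 0.4 and 0.6 of the way from replicate 2 to replicate 1. Across 186 named genes of 10 FPKM or more that differed at least 2-fold between replicates 1 and 2, the median position of replicate 3 was 0.46, with quartiles of 0.39 and 0.52, and 90.9% lay in between. The 2 directions differed: for the 156 of them higher in replicate 1 the median was 0.47 (quartiles 0.41 and 0.51), and for the 30 higher in replicate 2 it was 0.18 (quartiles 0.08 and 0.91), with 76.7% in between. For the 16 such genes of 100 FPKM or more, the quartiles narrowed to 0.46 and 0.50 and all 16 lay in between. For the shares of the 7 cell type lists that differed at least 2-fold between replicates 1 and 2, position ran from 0.45 to 0.58. For the other 33 lists, where replicates 1 and 2 were closer together, it ran from -5.14 for interstitial macrophages to 2.28 for platelets and megakaryocytes. Choosing genes or lists by a wide difference between libraries in itself favours the remaining library lying in between. Among named genes of 10 FPKM or more chosen by the other pairs, replicate 2 lay in between at 43.6% of 55 genes that differed at least 2-fold between replicates 1 and 3. Replicate 1 did so at 28.4% of 88 genes that differed between replicates 2 and 3.

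**Figure D5:**
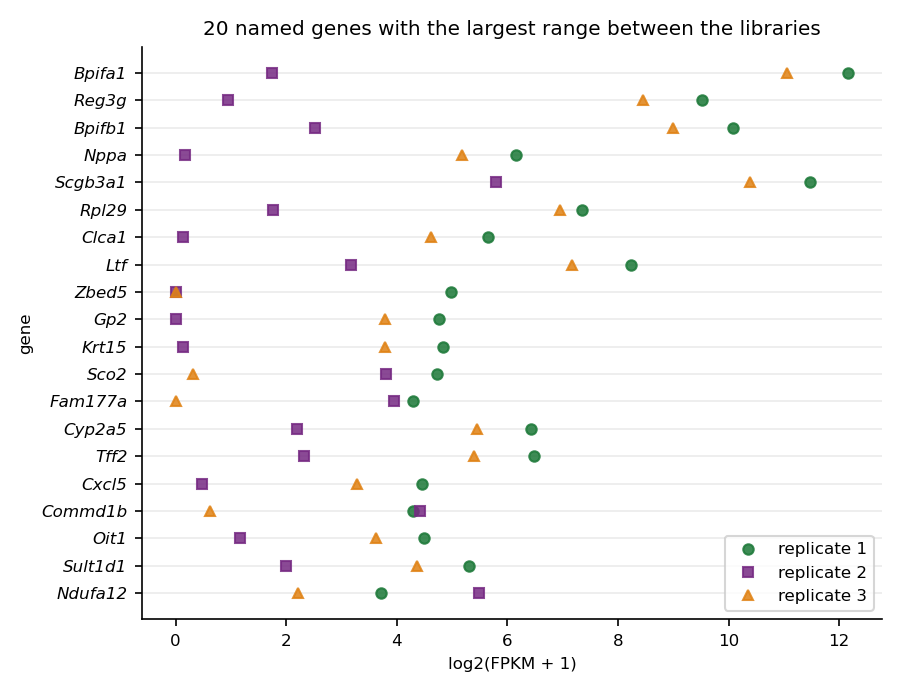
Values of log2(FPKM + 1) in each library for the 20 named genes with the largest range, ordered by that range, among genes with a mean of 10 FPKM or more. Replicate 1 is highest at 18 genes; on this log scale a value midway in FPKM appears close to replicate 1, as for Bpifa1 with 4599, 2.34 and 2131 FPKM.

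Few genes set replicate 3 apart. Of 6721 named genes with a mean of 10 FPKM or more, 3 were at least 2-fold above both other libraries in replicate 3 and 10 were at least 2-fold below. The corresponding counts were 17 above and 14 below in replicate 1, and 9 above and 57 below in replicate 2. The genes of replicate 3 described here were chosen after their values were seen. Pmp22, a membrane protein of myelin and epithelia, had 109, 126 and 282 FPKM. H3f3b, a gene for the replacement histone H3.3, had 127, 109 and 280 FPKM. Il33, an alarmin cytokine stored in the nuclei of type 2 cells, had 46.6, 48.5 and 16.4 FPKM, and Nfe2l1, a transcription factor for proteasome genes, had 66.1, 73.5 and 15.3 FPKM. At these genes replicates 1 and 2 stood together and replicate 3 apart.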

How the data were processed

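Values were the FPKM that the authors deposited in 1 table for all libraries. Per the labels' protocols, lungs were homogenized in TRIzol and polyadenylated RNA was captured on oligo(dT) beads. HISAT2 and the GRCm38 build are named in the submitters' processing notes. How fragments were counted, on which annotation and with which versions is not given in the sources used here. FPKM carry no counts, and the ratios of low values showed no steps of whole reads, so the depth of each library is unknown and no interval or floor is given.

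Shares were taken of each library's FPKM sum, and spread was taken as the SD and range of log2(FPKM + 1) over genes with a mean of at least 1 FPKM. No test was made, since there is 1 group of 3 libraries, and correlations across genes are descriptive because genes are not independent replicates. The position of replicate 3 was its difference from replicate 2 divided by that between replicates 1 and 2. It was taken on FPKM for genes and on shares for lists. Of 25526 names, 21437 matched GENCODE vM21, which gave positions and exon lengths, and 3626 carry a generic name for new genes that held 1.55% ± 0.159 of the FPKM. Descriptions used 40 cell type or tissue lists and 29 function lists. The members and the lists were chosen with earlier results of these data known. Named genes were the 50 most abundant, the 4 highest members and those at 0 of each list, the 20 most and the 20 least variable genes of at least 10 FPKM, and a fixed set of markers and superoxide-handling enzymes, from which the text gives a selection. Muc5b, Slc34a2, Abca3, Aqp5, Pdpn, Rpl18, Rpl7a, Rps15a, mt-Nd3 and Fos fall outside this rule and were chosen after their values were seen. Start-site windows are from RefSeq (GRCm38.p6). Scgb1a1, Sftpc and the other abundant genes with no window were not analysed there. Alternatives were other denominators, weighting by gene length, other thresholds, pseudocounts and scalings, and leaving out each library. The calculations were tested on simulated data. Python 3.11.15, pandas 2.3.3, numpy 2.4.6 and matplotlib 3.10.9 were used.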

Additional observations from a re-analysis of the deposited data

How the results depend on the processing

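Shares depended mainly on the denominator and on whether short genes are weighted by length. With each FPKM multiplied by gene length, the 50 most abundant genes held 14.2%, 1061 genes held 50% of the total, and the shares were 2.04% for Scgb1a1, 2.34% for mitochondrially encoded transcripts, 4.42% for ribosomal proteins and 10.7% for the cell type lists together (26.4% as reported). Without Scgb1a1 in the sum, these values were 26.0% for the 50 most abundant genes, 472 genes, 7.94% for mitochondrially encoded transcripts, 7.70% for ribosomal proteins and 15.6% for the cell type lists. Without mitochondrially encoded transcripts, the 50 most abundant genes held 32.4%, ribosomal proteins 7.21% and the cell type lists 28.3%. The cell type lists without the most abundant gene of each held 7.48%. Leaving out predicted and generic new genes moved 0 of these main values beyond the spread between libraries.

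A detection threshold of 10 FPKM in place of 1 left 6409 genes. The count of genes that differed at least 2-fold (680) was 1058 with a pseudocount of 0.1 and 249 at a mean of at least 10 FPKM, where fewer genes entered; it was 636 after quantile normalization, 677 after median-of-ratios scaling and 710 with column sums made equal. Leaving out each library in turn gave 171 to 582 such genes, the lowest without replicate 2, 252 without replicate 1 and the highest without replicate 3, and a median SD of 0.072 to 0.11 on the log2 scale. Leaving out each library gave 34.7% to 35.8% for the 50 most abundant genes, 246 to 272.5 genes for 50% of the total, 12.1% to 13.5% for Scgb1a1, 6.79% to 7.09% for mitochondrially encoded transcripts, 6.53% to 6.86% for ribosomal proteins, 26.0% to 26.8% for the cell type lists and 13360 to 13624 genes detected. Among the 40 single lists, leaving out replicate 1 moved 5 by over 1.5 times: goblet from 0.0192% to 0.00997%, basal from 0.00619% to 0.00312%, cardiac from 0.129% to 0.0823%, skeletal muscle from 0.00428% to 0.00266% and adipose from 0.0190% to 0.0113%. Leaving out replicate 2 or 3 moved 0 lists that far. No paired analysis was possible because the description holds 1 group and comes from no test. The depth is unknown, which limits what can be said of low values, and with replicate 3 near the midpoint of the others, the SD over 3 libraries is set mainly by replicates 1 and 2.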

Other observations

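Gapdh, the glycolytic enzyme often used as a reference gene, had only 12.9, 6.18 and 7.59 FPKM in replicates 1, 2 and 3, while Aldoa, of the same pathway, had 267, 234 and 265 FPKM and Actb, the cytoplasmic actin, had 617, 663 and 642 FPKM. Gapdh was chosen after its values were seen, it has many processed copies in the mouse genome, and the part of these copies in its value was not tested.

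By chromosome, 15.5% of the summed FPKM lay on chromosome 19, where Scgb1a1 alone gives 12.8%, and 7.02% on chromosome 14, where Sftpc gives 4.50%. A single entry with a generic new-gene name ranked 32 among all entries, with 1674, 1441 and 409 FPKM in replicates 1, 2 and 3, so that replicate 3 lay outside the other libraries; it is given no identity here.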
